A study of Mus musculus with 9 samples.

Results

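The genes described here are those whose trimmed symbol begins with the name of a collagen chain, a laminin chain, a matrix metalloproteinase (Mmp), a tissue inhibitor of metalloproteinases (Timp), an ADAMTS protease or ADAMTS-like protein, a lysyl oxidase, an integrin subunit, a thrombospondin, a fibulin or a fibrillin. The rule uses names and no values, though it was set with earlier results of these data known. It matched 137 of the 19686 genes in the deposited liver RNA-seq table. Of these, 5 matched by name only and encode other proteins, among them Col4a3bp, a ceramide transfer protein, and the integrin-binding proteins Itgb1bp1 and Itgb1bp2. Liver RNA of 9 male Wistar rats was sequenced, 3 in each group. The control group drank purified water and was gavaged with saline. The model group drank 15% fructose and was gavaged with saline. The HME group drank 15% fructose and was gavaged with the 50% methanol extract (HME) of Danggui-Shaoyao-San (DSS), a formula of 6 herbs, at 1.8 g/kg. Treatment lasted 8 weeks, and all rats were fasted for 12 h before they were killed. In the sample labels the HME group is named DSS and the organism is given as mouse, although Wistar is a rat strain and the table holds rat gene identifiers.

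Collagens build the fibrils, networks and basement membranes of the extracellular matrix, laminins assemble into basement membranes, and integrins are paired alpha and beta chains that anchor cells to them. Lysyl oxidases crosslink collagen and elastin, metalloproteinases and ADAMTS proteases cut matrix and procollagen, and TIMPs block metalloproteinases. In liver, stellate cells are the main source of fibrillar collagen, and its build-up with crosslinking is the hallmark of fibrosis.

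The 9 libraries held 14345819 to 26837227 counts. The members took 0.193% to 0.229% of the counts in 8 libraries and 0.146% in model replicate 1. That library also stood apart from the rest before any comparison, at -59.3 on the second principal component of all genes where the other 8 lay between -16.6 and 20.1. On the first component of 99 members, it stood at 6.37, and the next library, model replicate 3, at 2.58. Several values that rest on it are therefore also given without it. Levels are CPM, the counts per 1000000 of the TMM-normalized size of each library. A count of 0 allows a level of up to 0.12 to 0.199 CPM (3 counts), which covers counting error only. Every member had at least 1 count in at least 1 library, and 14 had under 10 counts over all 9. The table gives no positions, and no rat sequence or coordinates are given here.

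Per length, collagen XVIII was the most highly expressed member, and the type I fibril chains that mark fibrosis lay far below it. Levels between genes were set on the scale of mean CPM per kilobase over the 9 rats, with the longest mouse protein-coding transcript of the same symbol as the length, which approximates the rat transcript. All 137 members matched. Col18a1, the basement membrane collagen from which endostatin is cut, had 113 CPM per kb. Itgb1, the beta chain shared by most collagen and laminin receptors, had 33.3 and Col3a1, a fibrillar collagen, 32.8 CPM per kb. These 2 neighbours did not differ beyond the spread between rats. Itgb5 (19 CPM per kb), Mmp19 (17.3) and Mmp14 (16.8), a membrane-anchored collagenase, came next and lay close together. Col1a1 had 1.39 CPM per kb, which was rank 41 of the 137, and Col1a2, its partner chain in type I collagen, had 0.188 CPM per kb, at rank 88. Mmp9, a gelatinase of leukocytes, had 0.152 CPM per kb. Mmp13, the interstitial collagenase of rodents, had 0 counts in 7 of the 9 libraries and 1 and 2 counts in the others, which is at or below the limit given above.

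**Figure D1:**
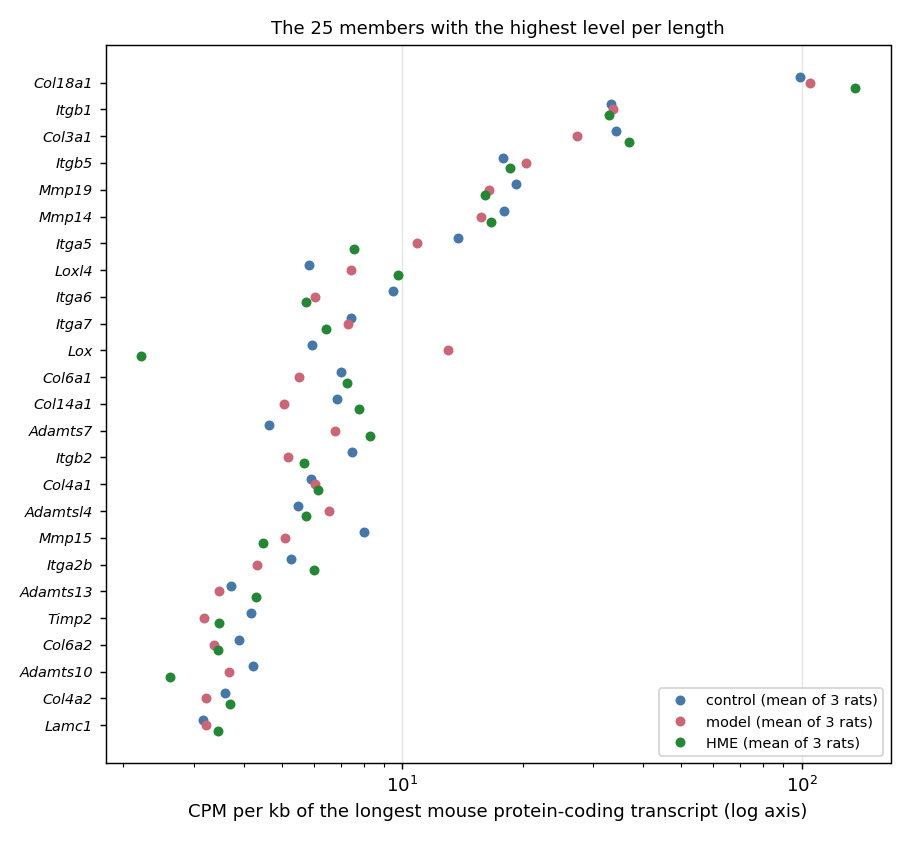
Level per length of the 25 members with the highest values, leaving out the 5 matched by name only, as mean CPM per kb of the longest mouse protein-coding transcript (log axis). Each point is the mean of 3 rats in the control, model or HME group. Col18a1 lies above 90 CPM per kb in all 3 groups, and the order of most lower members differs between groups.

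No member passed both thresholds in any comparison with edgeR. The fits covered all genes left by a filter on low counts, and the thresholds were an FDR of 0.01 or less and a log2 fold change of 0.5 or more in size. The filter left 93 members between model and control, 95 between HME and model and 95 between HME and control. In all, 90 members were tested in each of the 3 comparisons and 39 in none. Between model and control, 0 of 93 members passed, against 0.0801% of all genes tested, and 0 passed at an FDR of 0.05, against 0.601%. At an unadjusted p under 0.05 from edgeR, 8 members were lower in the model group (8.6%, against 6.36% of all genes) and 0 higher (against 6.84%), and DESeq2 called 0 members, against 2.05% of all genes. Without model replicate 1, 7 of 97 members were lower and 4 higher at that p from edgeR, against 990 and 967 of 12768 genes. Between HME and model, 0 of 95 members passed, against 0.136% of all genes, and 0 at an FDR of 0.05, against 0.456%. There, 4 members were higher (4.21%, against 3.54%) and 5 lower (5.26%, against 4.49%) at an unadjusted p under 0.05 from edgeR, and DESeq2 called 0, against 1.18% of all genes. Between HME and control, 0 of 95 members passed, against 1.48% of all genes. At an unadjusted p under 0.05 from edgeR, 5 were higher (5.26%, against 11.9% of all genes) and 10 lower (10.5%, against 12.5%). At an FDR of at most 0.05, 3 members passed (3.16%, against 6.36% of all genes), namely Mmp15, Adamts10 and Adamts6. The last passed the filter on low counts only through the HME group, where it was high, so nothing is read from its test. DESeq2 called 6 members there (6.32%, against 6.09%), namely these 3 and Col27a1, Itga5 and Adamts7.

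The share of members without overlap between the rats of 2 groups is set beside that of all genes here. The 3 model rats lay above the 3 control rats in 5 members and below them in 10 (5.38% and 10.8%, against 11.2% and 9.86% of all genes). Without model replicate 1 these counts were 11 and 13 of 97 members, against 2271 and 2035 of 12768 genes. The HME rats lay above the model rats in 4 and below them in 5 (4.21% and 5.26%, against 6.22% and 7.69%). The HME rats lay above the control rats in 7 and below them in 13 (7.37% and 13.7%, against 15.1% and 14.9%). For 3 rats in each of 2 groups, the smallest p of a two-sided exact permutation test is 0.1.

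The fitted values in the comparisons with the model group shifted with single rats. In that comparison 61 of 93 members had a fold change below 0 (65.6%, against 50.1% of all genes), with a median log2 fold change of -0.15, where the median of all genes was -0.00. Without model replicate 1, 51 of 97 members were below 0 (52.6%, against 51.3% of all genes), and the median was -0.01. Between HME and model 43 of 95 were below 0 (45.3%, against 49.9% of all genes) with a median of 0.03, which became -0.08 without model replicate 1. Between HME and control 54 of 95 were below 0 (56.8%, against 50.9%) with a median of -0.05, and the median of all genes was 0.00 and -0.01 in these comparisons. Both comparisons with the model group share its 3 libraries. With library size as the only scaling, the median of all genes itself moved to -0.14 in both comparisons with the control group, and that of the members to -0.27 and -0.19. The median standard error of a member's log2 fold change was 0.294 between model and control, 0.313 between HME and model and 0.257 between HME and control. Differences of about this size could not be told from the spread between rats. Several larger ones, given below, did not pass the thresholds either, so the lack of calls does not exclude changes above this size.

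**Figure D2:**
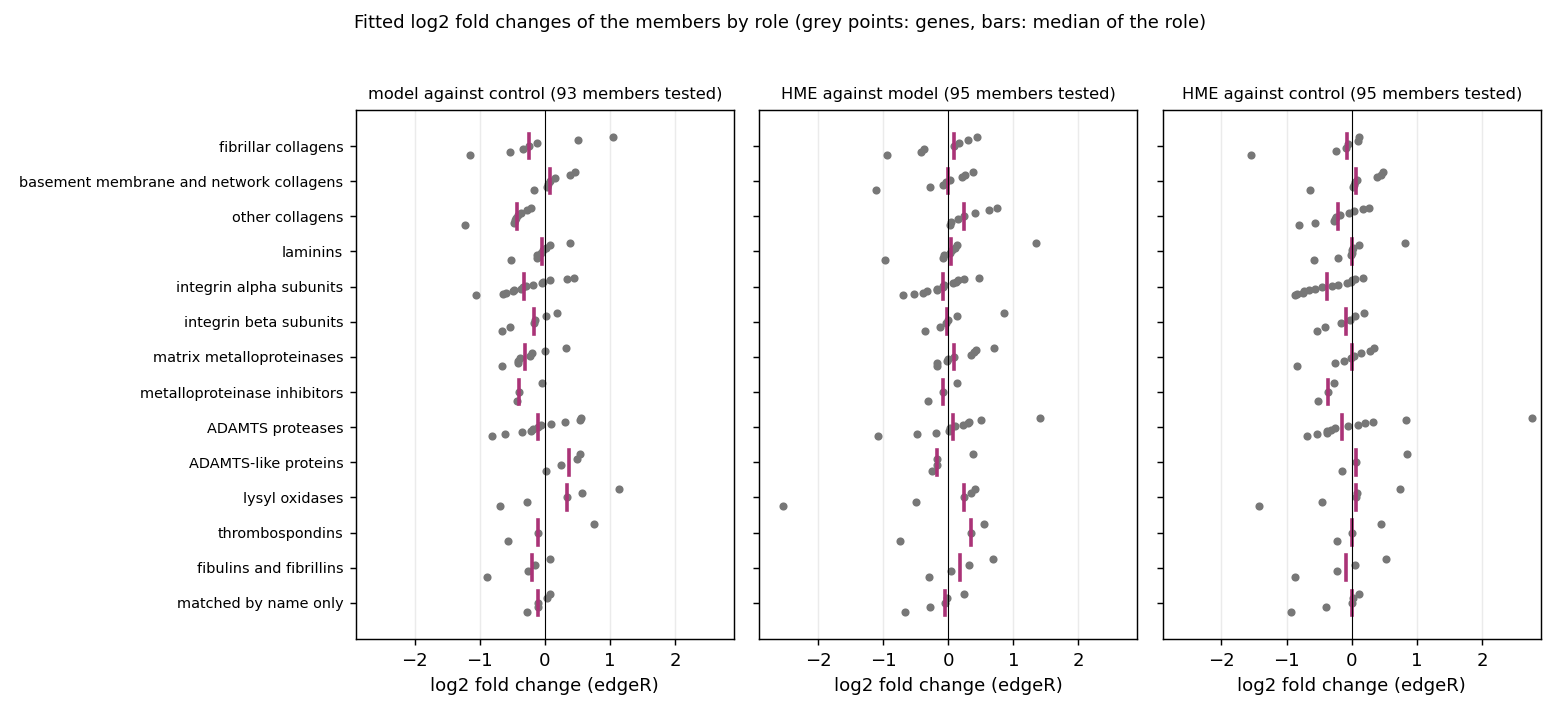
Log2 fold change from edgeR of each member tested (grey points), by role (rows) and comparison (panels), with the median of each role as a bar. The single point beyond 2 is Adamts6 (2.76, HME against control), and the point below -2 is Lox (-2.54, HME against model).

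Among the fibrillar collagens, Col27a1, a fibril-forming chain best known from cartilage, was the member with the lowest fold change between HME and control. Its level was 10.9, 24.4 and 17.1 CPM in the control rats, 10.3, 4.3 and 8.86 CPM in the model rats and 7.15, 7.28 and 3.64 CPM in the HME rats. All rats that drank fructose lay below all control rats, but the highest model rat was close to the lowest control rat. Its log2 fold change was -1.54 between HME and control (standard error, SE, 0.372, edgeR FDR 0.0566) and -1.15 between model and control (SE 0.383, edgeR FDR 0.259). DESeq2 called the first, and its FDR ranged from 0.0001485 to 0.136 over the alternatives that kept all rats. Without control replicate 1 its edgeR FDR was 0.0372, and it was 0.0875 to 0.134 when any other rat was left out.

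Col3a1, the most abundant fibrillar chain, stood at 176, 190 and 205 CPM in the control rats, 130, 188 and 138 CPM in the model rats and 149, 250 and 218 CPM in the HME rats. The 3 groups overlapped, and the log2 fold change was -0.33 between model and control, 0.44 between HME and model and 0.11 between HME and control. Col1a1 was at 8.58 ± 0.948 (control), 7.91 ± 1.24 (model) and 8.32 ± 3.49 CPM (HME) (SD, n = 3), so the group means lay closer together than the rats of the HME group. Its standard errors of 0.192, 0.326 and 0.3 leave room for moderate differences in either direction. Col5a1, which helps to start type I fibrils, had 17.4 ± 0.686, 14.8 ± 5.07 and 16.5 ± 3.21 CPM (control, model, HME). Of the 10 fibrillar genes, 7 were tested between model and control, where 5 had a fold change below 0 and the median was -0.25. Without model replicate 1 the median was -0.05.

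Col18a1 (ENSRNOG00000001229) was the abundant basement membrane member with a higher level in the HME group. It had 547, 577 and 538 CPM in the control rats, 506, 587 and 673 CPM in the model rats and 818, 632 and 831 CPM in the HME rats. Every HME rat lay above every control rat, while HME replicate 2 lay below model replicate 3. HME differed from control by 0.45 on the log2 scale (SE 0.137, edgeR FDR 0.0812), which missed the threshold, and from model by 0.37 (SE 0.176, edgeR FDR 0.669). Without HME replicate 2 the first was 0.57 with an edgeR FDR of 0.0398, and without another rat the FDR was 0.154 to 0.222. Hepatocytes are a known source of this collagen in liver.

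The type IV chains, which form the basement membrane network proper, gave no such difference. Col4a1 was at 39.1 ± 1.67 (control), 40.1 ± 12.2 (model) and 40.7 ± 5.07 CPM (HME). Col4a2, its usual partner in the same trimer, had 26, 22.5 and 21.1 CPM in the control rats, 10.9, 35.2 and 16.3 CPM in the model rats and 17.9, 30.6 and 23.1 CPM in the HME rats. Both were highest in model replicate 2 and the model rats spread across the range of the other groups. Of the basement membrane and network class, 6 of 7 tested had a fold change above 0 between model and control and 7 of 8 between HME and control, with medians of 0.08 and 0.07 that turned to -0.05 and -0.07 with library size as the only scaling.

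The remaining collagens, which sit on fibrils, form beaded filaments or span membranes, had like signs in the comparisons with the model group. Between model and control, 8 of 8 tested had a fold change below 0, with a median of -0.43, and between HME and model 7 of 7 were above 0, with a median of 0.24. The model libraries are shared, so the second count is not independent of the first. None of these members passed the test. Without model replicate 1, 9 of 10 were below 0 (median -0.28) and 8 of 9 above 0 (median 0.22). Between HME and control, 7 of 10 tested were below 0 and 3 above, with a median of -0.21. That median was -0.21 to -0.14 with 1 rat left out. The summed level of the class was 112, 107 and 112 CPM in the control rats and 110, 115 and 112 CPM in the HME rats. In the model rats it was 64, 112 and 78.9 CPM. The HME and control sums overlapped, so the lower median did not show in the sum. Col14a1, which binds along collagen fibrils, was at 46.1, 40.1 and 46.9 CPM in the control rats, 22.4, 48.4 and 27.3 CPM in the model rats and 48, 49.6 and 53 CPM in the HME rats. Model replicates 1 and 3 lay well below all other rats and model replicate 2 within them. Its log2 fold change was -0.45 (SE 0.262) between model and control and 0.63 (SE 0.264) between HME and model. Between HME and control it was 0.17 (SE 0.102, edgeR FDR 0.336), or 0.11 without control replicate 2, with all HME rats above all control rats. Col6a1, a chain of the beaded collagen VI filament, followed the same order, with 28.8 ± 2.31 (control), 22.5 ± 6.03 (model) and 29.8 ± 1.62 CPM (HME).

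The laminins differed little as a class. Of the 10 laminin genes, 8 were tested in each comparison, and 5 had a fold change below 0 between model and control (median -0.04), 3 between HME and model (median 0.04) and 3 between HME and control (median 0.01). None passed the test. Lamc1, the gamma chain of most basement membrane laminins, was the most abundant laminin by counts. It was at 23.8, 24 and 24.6 CPM in the control rats, 15.8, 33.9 and 24 CPM in the model rats and 27.6, 25.3 and 25.8 CPM in the HME rats. The HME values were just above the control values, with a log2 fold change of 0.12 (SE 0.104, edgeR FDR 0.538) that turned to -0.02 with library size as the only scaling. Lamb1 had 7.63 ± 1.07, 7.55 ± 1.96 and 7.67 ± 0.301 CPM (control, model, HME).

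Of the integrin alpha chains, Itga5, which pairs with Itgb1 to bind fibronectin, was lower in both groups that drank fructose. It was at 65.9, 60.2 and 55 CPM in the control rats, 50.3, 41.8 and 51.1 CPM in the model rats and 21.1, 34.6 and 43.8 CPM in the HME rats. All 6 rats that drank fructose lay below the 3 control rats, and HME replicate 3 overlapped the model rats. The difference on the log2 scale was -0.87 between HME and control (SE 0.242, edgeR FDR 0.0789) and -0.34 between model and control (SE 0.139, edgeR FDR 0.34). DESeq2 called the first, and its FDR ranged from 0.00495 to 0.15 over the alternatives that kept all rats. The edgeR FDR was 0.0311 without HME replicate 3 and 0.0611 to 0.192 without another rat.

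Itga2b, the alpha chain of the platelet fibrinogen receptor, had narrow groups in a different order. It was at 17.9, 17.8 and 18.6 CPM in the control rats, 15.4, 14.7 and 14.5 CPM in the model rats and 21.9, 21.2 and 18.7 CPM in the HME rats. No 2 groups overlapped. On the log2 scale the difference was 0.48 between HME and model (SE 0.142, edgeR FDR 0.384) and 0.18 between HME and control (SE 0.117, edgeR FDR 0.378). Other platelet genes were far lower, Pf4 at 0.677 to 4.32 CPM, and Ppbp, Gp9 and Treml1 at 0 to 0.431 CPM. Itgae, which pairs with Itgb7 on intraepithelial lymphocytes, was at 4.14, 6.96 and 5.32 CPM in the control rats and 3.3, 3.24 and 3.85 CPM in the HME rats, without overlap (log2 fold change -0.66, SE 0.235, edgeR FDR 0.124).

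As a class, 12 of the 14 alpha chains tested had a fold change below 0 between HME and control (median -0.38) and 11 of 14 between model and control (median -0.31). The median stayed below 0 with every rat left out in turn, between -0.48 and -0.19 in the first comparison and between -0.41 and -0.06 in the second, where -0.06 is the value without model replicate 1. The summed level of the class was 222 to 239 CPM in the control rats, 152, 235 and 182 CPM in the model rats and 164 to 185 CPM in the HME rats. Itga1, a collagen receptor chain, varied most among the abundant ones in the model group, at 5.98, 37.8 and 23.1 CPM, against 25.1 ± 4.79 CPM for control and 24.1 ± 6.46 CPM for HME. Itgav, which pairs with several beta chains and can activate latent TGF-beta, was at 14.5 ± 0.482, 15.5 ± 6.64 and 14.5 ± 0.934 CPM (control, model, HME).

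The beta chains differed less. Itgb1 had nearly the same mean in each group, with 127 ± 4.48 (control), 129 ± 13.9 (model) and 126 ± 7.38 CPM (HME). Its log2 fold changes were 0.02, -0.03 and -0.02, with standard errors of 0.129, 0.133 and 0.101. Itgb3, the partner of both Itgav and Itga2b, was at 10.7, 8.62 and 9.84 CPM in the control rats, 2.19, 11.9 and 4.74 CPM in the model rats and 12.9, 12.2 and 8.53 CPM in the HME rats. Model replicates 1 and 3 were the lowest and model replicate 2 was within the other groups. Itga1 had the same order among the model rats, but there model replicate 2 lay above the other groups and model replicate 3 within them. The sum of 11 endothelial markers had the same high model rat, at 211, 437 and 190 CPM in model replicates 1, 2 and 3, and its part in these results was not tested. In bulk tissue, fewer cells of a type and less RNA per cell cannot be told apart.

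Among the matrix metalloproteinases, Mmp15 (ENSRNOG00000012622), a membrane-anchored enzyme that can activate pro-Mmp2, had the clearest difference. It was at 41.6, 42.3 and 39.5 CPM in the control rats, 27.1, 19.8 and 31.2 CPM in the model rats and 19.1, 20.6 and 29.4 CPM in the HME rats. The control rats were tight and lay above all 6 rats that drank fructose, and the model and HME rats overlapped. Its log2 fold change was -0.84 between HME and control (SE 0.16, edgeR FDR 0.0176), past an FDR of 0.05 but not of 0.01. Between model and control it was -0.66 (SE 0.179, edgeR FDR 0.159), and between HME and model -0.18 (SE 0.226). With the other alternatives that kept all rats, the FDR between HME and control was 0.0003404 to 0.0417. Without 1 rat it was 0.00535 (without HME replicate 3) to 0.0585 (without HME replicate 1), and it was also above 0.05 without control replicate 1 or 2 (0.0525 and 0.0573).

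The other abundant metalloproteinases differed less. Mmp19, the most abundant by counts, was at 67, 69.3 and 60.3 CPM in the control rats, 52.7, 55.9 and 59.3 CPM in the model rats and 52.5, 56.1 and 55.9 CPM in the HME rats. All control rats lay above all others, by a log2 fold change of -0.23 (SE 0.122) in the model group and -0.26 (SE 0.0971) in the HME group, neither of which passed. Mmp14 was at 58.3 ± 6.99, 50.8 ± 7.94 and 54.1 ± 8.59 CPM and Mmp2, the gelatinase it activates, at 9.23 ± 1.14, 9.24 ± 1.16 and 11.7 ± 2.22 CPM (control, model, HME). Between model and control 7 of 8 tested were below 0 (median -0.31, and -0.16 without model replicate 1), and between HME and control 4 of 8. Summed over the class, the level was 175 to 194 CPM in the control rats, 141 to 168 CPM in the model rats and 134 to 169 CPM in the HME rats. All control rats lay above all rats that drank fructose in this sum, which includes Mmp15 and Mmp19. Of 18 Mmp genes, 8 or 9 passed the filter in a comparison. Mmp9 had 5 to 18 counts in a library and was not tested.

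The inhibitors had lower means in both groups that drank fructose, and none of them passed the test. Timp1, which is induced in activated stellate cells, was at 2.97, 2.79 and 3.79 CPM in the control rats, 2.19, 2.95 and 1.97 CPM in the model rats and 2.33, 2.43 and 1.92 CPM in the HME rats. Each HME rat lay below each control rat (log2 fold change -0.52, SE 0.242, edgeR FDR 0.225). Timp2 was at 15.5 ± 2.73, 11.8 ± 3.28 and 12.9 ± 1.47 CPM and Timp3, which is bound to the matrix, at 10.5 ± 2.38, 10.3 ± 3.19 and 8.24 ± 1.09 CPM (control, model, HME). Summed over the inhibitors, the level was 24.5 to 33.3 CPM in the control rats, 17.8 to 29.8 CPM in the model rats and 23.1 to 24 CPM in the HME rats, so that the HME rats lay below the control rats and the model rats overlapped both. All 3 tested inhibitors had a fold change below 0 in both comparisons with the control group.

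**Figure D3:**
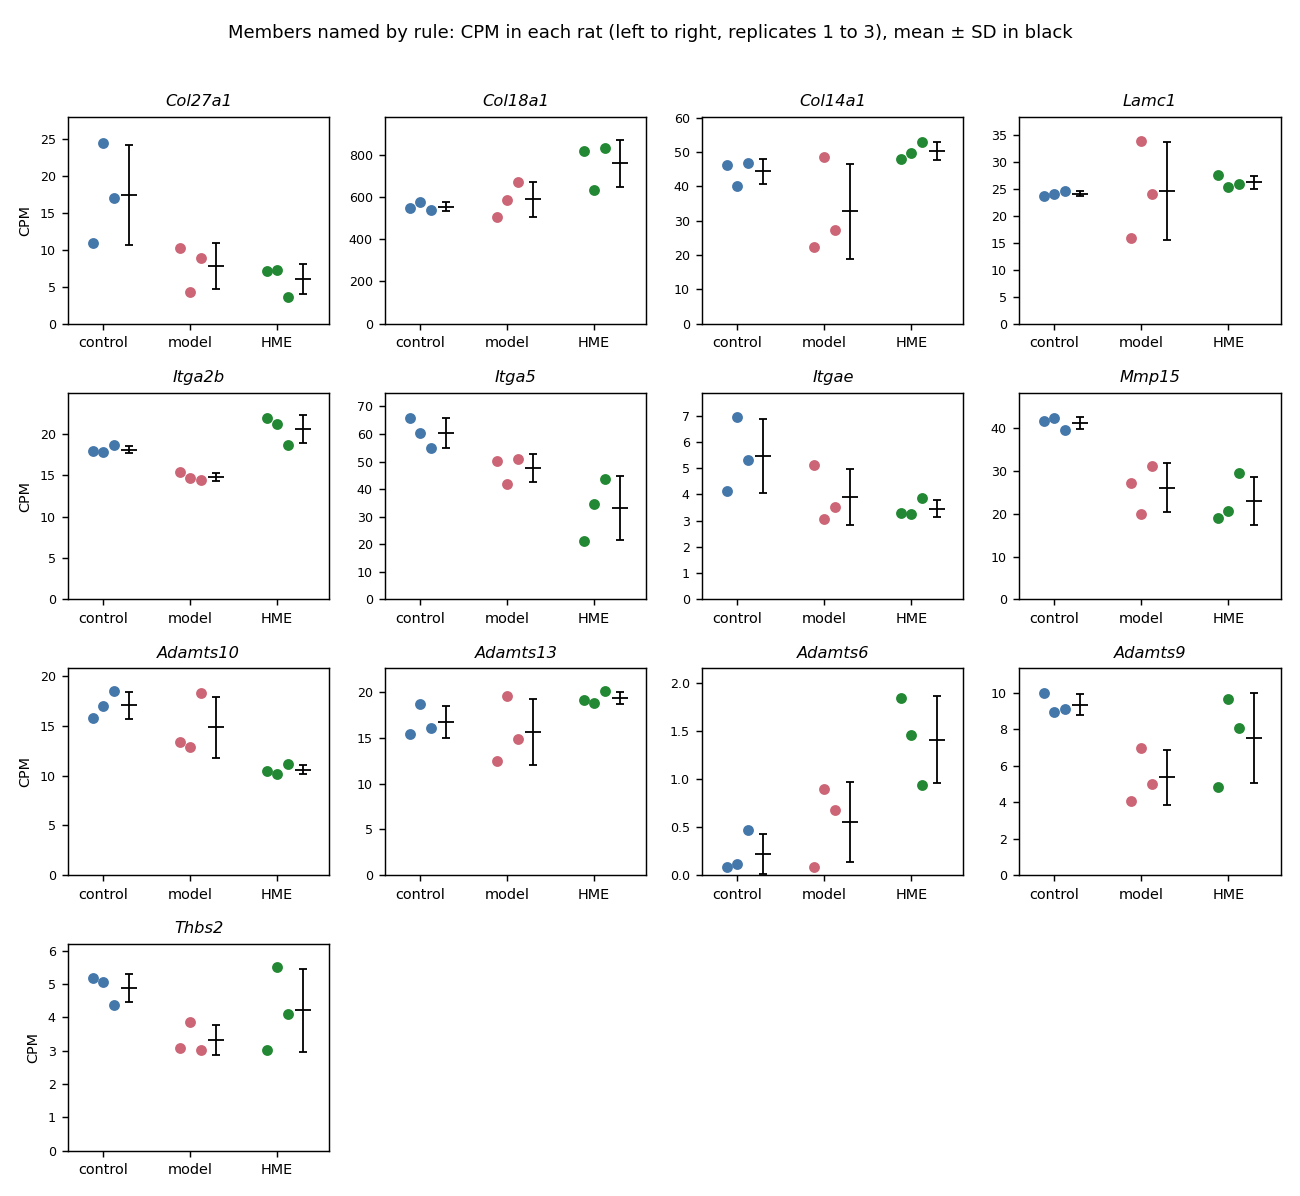
CPM of 13 members named for the size of their difference, in each rat (points, from left to right replicates 1 to 3) with the mean ± SD of 3 rats in black, for the control, model and HME groups. Mmp15, Itga5 and Col27a1 are highest in the control rats, Adamts10 is lowest in the HME rats, and the model rats spread most in Lamc1 and Col14a1.

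Adamts10 (ENSRNOG00000008857), a protease that binds fibrillin microfibrils, was lowest in the HME group. It was at 15.8, 17 and 18.5 CPM in the control rats, 13.4, 12.8 and 18.3 CPM in the model rats and 10.5, 10.2 and 11.1 CPM in the HME rats. All HME rats lay below all other rats, and the model rats overlapped with control. Its log2 fold change was -0.69 between HME and control (SE 0.127, edgeR FDR 0.0159) and -0.48 between HME and model (SE 0.186, edgeR FDR 0.574), which became -0.29 without model replicate 3. The FDR between HME and control was 0.00153 to 0.0456 with the other alternatives that kept all rats. It was 0.0291 to 0.059 with 1 rat left out, and was above 0.05 without control replicate 2, control replicate 3 or HME replicate 1.

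Adamts6, a related protease, was the member with the largest fold change, from low counts. It had 2, 2 and 7 counts in the control rats, 2, 14 and 11 counts in the model rats and 34, 27 and 18 counts in the HME rats, or 0.0803, 0.119 and 0.465 CPM, 0.086, 0.898 and 0.677 CPM, and 1.84, 1.46 and 0.936 CPM. Its HME rats were above all other rats, and 2 control rats were at or under the 3 counts that a count of 0 allows. The fitted log2 fold change of 2.76 between HME and control is a description only, since the gene passed the filter through the HME group, where it was high. It was 2.27 to 3.78 with 1 rat left out. The gene was not tested between model and control.

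Adamts9, which cleaves versican and aggrecan, was at 10, 8.92 and 9.1 CPM in the control rats, 4.09, 6.99 and 4.99 CPM in the model rats and 4.82, 9.65 and 8.06 CPM in the HME rats. The model rats lay below all control rats, and the HME rats overlapped both groups. Model and control differed by a log2 fold change of -0.81 (SE 0.227, edgeR FDR 0.172), and -0.66 without model replicate 1. Adamts13, the von Willebrand factor protease made by stellate cells, was at 15.4, 18.7 and 16.1 CPM in the control rats and 19.2, 18.8 and 20.1 CPM in the HME rats, 0.20 apart on the log2 scale (SE 0.125, edgeR FDR 0.35). Adamts7, the most abundant of the family by counts, was at 21.2, 30.7 and 23.1 CPM in the control rats, 22.2, 42.9 and 44.3 CPM in the model rats and 51.4, 30.1 and 52 CPM in the HME rats. HME replicate 2 overlapped the control rats, and the log2 fold change between HME and control was 0.83 (SE 0.239, edgeR FDR 0.0827). Adamts1, which cuts versican, was at 14.6 ± 5.69, 9.69 ± 2.5 and 11.3 ± 1.87 CPM (control, model, HME). Of the proteases tested, 7 of 11 were below 0 between model and control (median -0.11) and 7 of 12 between HME and control (median -0.15), and these medians became 0.06 without model replicate 1 and 0.14 without control replicate 1. The 4 ADAMTS-like genes, which lack the protease domain, were all above 0 between model and control (median 0.37), none past the test, and Adamtsl4, the most abundant by counts, was at 22.1 ± 6.13, 26.4 ± 8.14 and 23.2 ± 7.17 CPM.

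Lox, the lysyl oxidase that crosslinks fibrillar collagen and elastin, varied widely between the rats of a group. It was at 24.8, 3.39 and 56 CPM in the control rats, 117, 43.7 and 23.8 CPM in the model rats and 24.4, 2 and 5.2 CPM in the HME rats. The rats of the control group alone spanned more than 10-fold, and every pair of groups overlapped. The log2 fold changes of 1.14, -2.54 and -1.42 (model against control, HME against model, HME against control) had standard errors of 0.874, 0.893 and 1.32, and none passed. Loxl2, which also crosslinks collagen IV, was at 5.5, 5.41 and 5.25 CPM in the control rats, 1.33, 6.22 and 2.71 CPM in the model rats and 3.84, 4.48 and 3.54 CPM in the HME rats. Each HME rat lay below each control rat (log2 fold change -0.45, SE 0.183, edgeR FDR 0.166). Loxl1 was at 1.53, 1.9 and 1.06 CPM in the control rats, 1.94, 2.44 and 2.4 CPM in the model rats and 1.57, 1.78 and 1.4 CPM in the HME rats, so that the model rats lay above both other groups, but neither difference passed the test (log2 fold changes of 0.58 and -0.50, standard errors 0.321 and 0.282). Loxl4, named here after its values were seen, had 24.1, 20.3 and 20.9 CPM in the control rats and 47.1, 46.7 and 15.7 CPM in the HME rats. HME replicate 3 was on the other side of the control group, and the log2 fold change was 0.74 with it (SE 0.419, edgeR FDR 0.345) and 1.12 without it (SE 0.118, edgeR FDR 0.00442).

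Thbs2, a thrombospondin that limits the growth of new vessels, was at 5.18, 5.05 and 4.39 CPM in the control rats, 3.1, 3.85 and 3.02 CPM in the model rats and 3.03, 5.5 and 4.11 CPM in the HME rats. The model rats lay below all control rats (log2 fold change -0.56, SE 0.222, edgeR FDR 0.326), and the HME rats spanned both groups. Thbs1, which can activate latent TGF-beta, was at 5.49 ± 2.5, 5.14 ± 1.23 and 7.48 ± 4.59 CPM. Fbn1, the main fibrillin of microfibrils, was at 12.4 ± 1.18, 10.5 ± 4.35 and 13 ± 1.02 CPM, and Fbln1 at 1.08 ± 0.245, 1.17 ± 0.434 and 0.941 ± 0.159 CPM (control, model, HME). In these 3 genes the groups overlapped.

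Summed over all 137 members, the level was 1981 to 2037 CPM in the control rats, 1682, 2157 and 1945 CPM in the model rats and 2111 to 2205 CPM in the HME rats. The HME rats lay above the control rats, and Col18a1 alone gave 632 to 831 CPM of their sum. With Col18a1 left out of the sums, the HME and control rats overlapped. They also overlapped when the members were taken as a share of the raw counts. That share was 0.229%, 0.204% and 0.214% in the control rats and 0.210%, 0.213% and 0.200% in the HME rats. Model replicate 1 was the lowest rat in the sums of fibrillar, basement membrane and other collagens, laminins, integrin alpha and beta chains, inhibitors and ADAMTS proteases, and the highest in the lysyl oxidases. Markers of the cell types that liver tissue holds were summed in the same way. The 15 stellate cell and fibroblast markers summed to 159 to 176 CPM in the control rats, 140, 199 and 140 CPM in the model rats and 164 to 173 CPM in the HME rats. The 16 Kupffer cell and leukocyte markers summed to 330 to 616, 253 to 491 and 330 to 461 CPM, and the endothelial markers to 253 to 369, 190 to 437 and 264 to 352 CPM (control, model, HME). The 8 hepatocyte markers summed to 180070 CPM in model replicate 1 and 113050 to 172060 CPM in the other rats, mostly from Alb (87429 to 146330 CPM). The list did not move as one between model and control, where 4 markers had a fold change above 0 and 4 below. The 4 below were Cyp2e1, Cps1, Tat and Hnf4a, each with an unadjusted p under 0.05 from edgeR. Cps1 was lowest of all rats in model replicate 1. Markers of bile duct (16.2 to 35.3 CPM), mesothelial (186 to 302 CPM, of which Krt18, a keratin that hepatocytes also express, gave 160 to 264), platelet (15.6 to 24.1 CPM, mostly Itga2b), red blood (362 to 1195 CPM) and pancreatic or intestinal (14.2 to 29.4 CPM, mostly Cela1) cells are given as the range over all rats. Of these, the platelet sum was lower and the pancreatic or intestinal sum higher in all 3 model rats than in all 3 control rats. These differences are those of Itga2b, itself a member, and of Cela1, so they are not read as changes in the cells. Pf4 and Fabp2, the other markers tested on these lists, overlapped between model and control. Markers of proliferating cells were at 4.46 to 9.07 CPM in the control rats, 7.87 to 15.5 CPM in the model rats and 2.55 to 5.93 CPM in the HME rats. No marker found in the table was at 0 in all 9 libraries. The part of these cells in the values of the members was not tested.

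**Figure D4:**
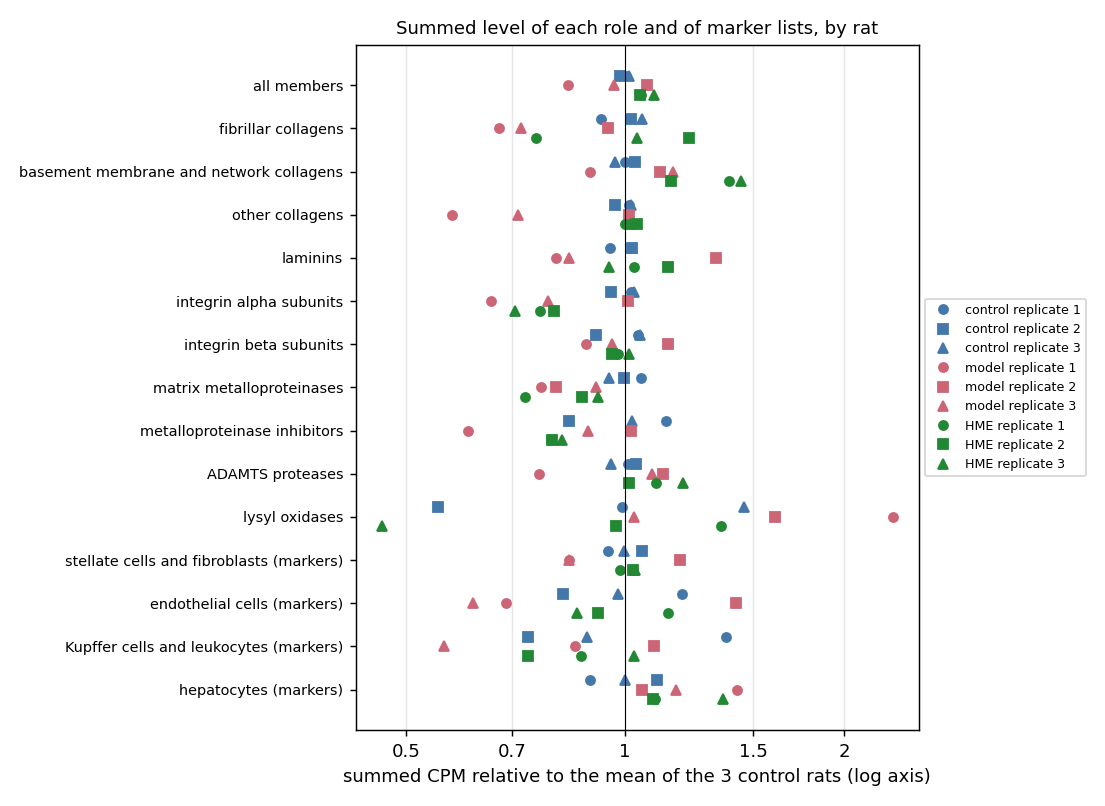
Summed CPM of each role and of 4 marker lists in each rat, divided by the mean of the 3 control rats (log axis). Colours give the group and symbols the replicate. Model replicate 1 (red circles) lies lowest in most roles, the 3 HME rats lie below the 3 control rats in the integrin alpha subunits, and the lysyl oxidases spread most.

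Of the other genes of matrix signalling and handling, 24 of TGF-beta and PDGF signalling, 19 of collagen processing, 24 of other matrix glycoproteins and proteoglycans, 14 of plasmin and other matrix-cleaving enzymes and 22 of integrin adaptors were found in the table. In each of the 3 comparisons 0 of these were called at both thresholds with edgeR. Of the 24, 18, 18, 12 and 21 genes tested on the 5 lists in that order between model and control, 2, 3, 5, 0 and 1 had an unadjusted p under 0.05 from edgeR. Of the 24, 18, 18, 13 and 20 tested in each of the other comparisons, it was 2, 2, 1, 0 and 2 between HME and model, and 4, 5, 5, 3 and 4 between HME and control. Over the 93 genes tested in each comparison, 7.53% were higher and 4.3% lower at that p between model and control (against 6.84% and 6.36% of all genes), 1.08% and 6.45% between HME and model (against 3.54% and 4.49%), and 12.9% and 9.68% between HME and control (against 11.9% and 12.5%). The median log2 fold change of a list lay between -0.05 and 0.02, between -0.07 and 0.08 and between -0.07 and 0.19 in these comparisons. DESeq2 called 0 of them in the first and second comparison and 6 in the third (6.45%, against 6.09% of all genes), namely Pdgfc, Serpinh1, Eln, Vtn, Npnt and Parvb. Pdgfc and Vtn were higher in the HME group and the others lower. The other matrix glycoproteins and proteoglycans summed to 5490.2 to 5778.5 CPM in the control rats, 6722.4 to 8915.6 CPM in the model rats and 6924.5 to 8469.4 CPM in the HME rats. Vtn gave 3079 to 5740 CPM of these sums, and Fn1, the fibronectin gene, was the next largest part. Fn1 was at 1357 to 1546 CPM in the control rats, 1969 to 2245 CPM in the model rats and 1663 to 2017 CPM in the HME rats. Neither gene passed between model and control (edgeR FDR 0.335 for Vtn and 0.177 for Fn1). At an FDR of at most 0.05 from edgeR, 6 of 93 genes passed between HME and control (6.45%, against 6.36% of all genes). Eln, the elastin gene, had the lowest FDR. It was at 8.39, 9.04 and 11.5 CPM in the control rats, 5.94, 5.78 and 6.16 CPM in the model rats and 3.63, 4.8 and 4.52 CPM in the HME rats, without overlap between any 2 groups (log2 fold change -1.16, SE 0.191, edgeR FDR 0.0102 for HME against control). With 1 rat left out its FDR was 0.0195 to 0.0429.

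Serpinh1, the collagen chaperone HSP47, was at 37.8, 50.8 and 57.8 CPM in the control rats, 34.9, 34 and 36.4 CPM in the model rats and 17.7, 22.8 and 31.6 CPM in the HME rats (log2 fold change -1.03, SE 0.239, edgeR FDR 0.046 for HME against control). P4ha1, a subunit of collagen prolyl hydroxylase, was at 15.8 to 17 CPM in the control rats, 10.7 to 12.2 CPM in the model rats and 10.7 to 12.3 CPM in the HME rats (-0.52, SE 0.123, edgeR FDR 0.038). Both were lower in all rats that drank fructose than in any control rat, while Col3a1 and Col1a1 overlapped between the same groups. Npnt, an integrin ligand of basement membranes, and Parvb, an integrin adaptor, had log2 fold changes of -1.95 (edgeR FDR 0.0287) and -1.10 (edgeR FDR 0.0411). Pdgfc, a growth factor for fibroblasts and stellate cells, had 4.98, 6.07 and 6.45 CPM in the control rats and 17.5, 10.9 and 8.53 CPM in the HME rats (1.08, SE 0.265, edgeR FDR 0.0448). With 1 rat left out, the highest FDR of these 5 genes lay between 0.0928 and 0.144.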

How the data were processed

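The authors aligned liver RNA-seq reads with HISAT2 2.0.5. Reads on each gene were then counted with HTSeq 0.6.1, ignoring strand. They deposited the raw counts, whole numbers with no normalization. The submitters' processing notes name the build Rnor_6.0. The counts of genes that overlap, on either strand, can therefore be affected by each other's reads. A second deposited table, of 127 transcripts assembled by the authors, each with a value in 1 library only, was not used.

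All genes were fitted with edgeR 4.0.16 in R 4.3.3 on the 6 libraries of each pair of groups (filterByExpr, TMM, robust glmQLFit, two-sided glmQLFTest, Benjamini-Hochberg FDR over all genes tested), and the members were read from that fit. CPM used TMM sizes over the 9 libraries. Alternatives were DESeq2 1.42.0, DESeq2 size factors, library size alone, no filter, at least 10 counts in every library, a block for the replicate number, a single fit of all 9 libraries, no minimum fold change, an FDR of 0.05, and leaving out each rat. The scripts were tested on simulated data. The rats of a group are separate animals.

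Named members were those with an FDR of at most 0.05, up to 5 largest rises and 5 largest falls per comparison among members without overlap whose mean count was 50 or more, the member with the highest count in each role, and a fixed list. Of the members this rule names, 1 is not reported here. Loxl4 was added after its values were seen. The members, roles, marker lists and pathway lists were chosen with earlier results of these data known. Same-numbered rats did not deviate together (correlations of -0.232 to -0.0206), so the numbers were not taken as pairs. Mouse transcript lengths are from GENCODE M21.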

Additional observations from a re-analysis of the deposited data

How the results depend on the processing

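The count of members called stayed at 0 between model and control and between HME and model under all alternatives run. Between HME and control, where it was 0, it was 2 with library size alone (Mmp15 and Adamts10), 3 without a filter on low counts and 3 at an FDR of at most 0.05 (both with Adamts6), and 6 with DESeq2. With 1 rat left out it was 0 to 2, with 2 (Mmp15 and Loxl4) without HME replicate 3. Lamc1 between HME and control turned from 0.12 to -0.0177 with library size alone. With the replicate number as a block, 0 members were called in each comparison. The numbers do not pair the rats, and no rat was matched with another. Over all genes, edgeR called 10, 17 and 187 (model against control, HME against model, HME against control), 0, 7 and 104 with the replicate block, 25, 20 and 113 with all 9 libraries in one fit, 71, 38 and 489 without a filter, 75, 57 and 804 at an FDR of at most 0.05, and 256, 147 and 769 with DESeq2. The cause of these differences was not tested. Of 389 fold changes of single genes under alternatives, 1 changed sign. Settings that alter only a threshold are among them and cannot change a sign. These genes were also named for groups without overlap or for a low FDR, so few changes of sign were possible and nothing is read from this count. Members with a mean count of at least 50 had a median standard error of 0.186 to 0.262 on the log2 scale. It holds both counting error and the spread between rats, which were not separated.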
